A study of Homo sapiens with 6 samples.

Results

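The D-type cyclins, their kinases CDK4 and CDK6, the kinase inhibitors of the INK4 group and CDKN1B, and the retinoblastoma gene RB1 were examined in Ewing tumor cells. The 10 genes were chosen by name, and the list was also selected on measured values, the array levels of CCND2 and CDKN2A, which differ between the cell lines. Each gene was read from a probe set that the platform annotation gives to that symbol alone. Of the 10 genes, 9 were measured, out of 18417 genes with a single symbol in the series, and each had 1 probe set. CDKN2C, the INK4 inhibitor p18, had no such probe set and was not analysed here.

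The values come from 6 Affymetrix Human Gene ST arrays of A673 and SK-N-MC, established human Ewing tumor cell lines. Each line gave 1 array with STEAP1 siRNA 2, 1 array with STEAP1 siRNA 3 and 1 array with a control siRNA, all with 5 nM siRNA for 48 h. STEAP1 encodes a transmembrane metalloreductase family protein, and both siRNAs target its transcript. Cells grew in RPMI with 10% FCS and RNA was taken at 80% confluency. The control siRNA is not named. As separate cultures are not stated, p-values reflect the spread between these arrays alone, which may be technical. For the response within a line and the difference of responses, it is the spread between siRNA 2 and siRNA 3. That spread includes any difference between the siRNAs.

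In G1, D-type cyclins bind CDK4 or CDK6, and the active kinases phosphorylate the RB1 protein, which then releases E2F transcription factors that drive genes of DNA replication. INK4 proteins bind CDK4 and CDK6 and keep them from the cyclin, and the CDKN1B protein p27 inhibits cyclin E-CDK2 while it can also ride on cyclin D complexes. CCND1 is known as a gene that the EWSR1-FLI1 fusion of Ewing tumors drives. CDKN2A is a tumor suppressor that is lost in a part of these tumors.

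Array medians lay between 2.59 and 2.70 on the log2 scale, and arrays correlated across genes at 0.986 to 0.993 within a line and at 0.946 to 0.949 between lines. STEAP1 stood at 30.8% of the control level with siRNA 2 and 32.1% with siRNA 3 in A673, and at 12.7% and 18.7% in SK-N-MC. Of the Ewing markers, CD99 (log2 level 9.40 to 10.25), NKX2-2 (5.57 to 6.15), EWSR1 and FLI1 had values in all arrays, while PTPRC of leukocytes (1.01 to 1.23) and CDH5 of endothelium (1.46 to 1.64) were dim. KRT18, a keratin of simple epithelia, was at 7.53 to 8.57 in these lines, while EPCAM and CDH1 were at 1.33 to 2.26.

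The first question is how the genes stood in A673 against SK-N-MC. Since a difference between the lines was noted when the genes were listed, these values are a description with no test. Levels are log2 of the deposited intensity, and each mean is over the 3 arrays of a line with its SD.

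The D-type cyclin genes differed between the lines in opposite directions. CCND1, cyclin D1, was at 9.21 with siRNA 2, 9.39 with siRNA 3 and 9.39 in the control array of A673. In SK-N-MC it was at 7.22 with siRNA 2, 7.68 with siRNA 3 and 7.75 in the control array. All A673 arrays lay above all SK-N-MC arrays, and the mean log2 levels were 9.33 ± 0.10 for A673 and 7.55 ± 0.28 for SK-N-MC (SD, n = 3 each), a 3.43-fold difference. In such bulk RNA, fewer expressing cells and less RNA per cell cannot be told apart.

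CCND2, cyclin D2, showed the opposite order. It was at 2.07 with siRNA 2, 1.79 with siRNA 3 and 2.05 in the control array of A673. It was at 7.47 with siRNA 2, 7.21 with siRNA 3 and 7.78 in the control array of SK-N-MC. The groups lay far apart, at 1.97 ± 0.16 in A673 and 7.48 ± 0.29 in SK-N-MC (SD, n = 3 each, mean log2 levels). On the linear scale CCND2 was at 3.46 to 4.20 intensity units in A673 and at 147.6 to 219.6 units in SK-N-MC. The A673 values were below the median of their arrays and no detection calls were used, so the size of this difference is uncertain.

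CCND3, cyclin D3, lay at 5.09, 5.05 and 4.99 in A673 and at 5.75, 5.63 and 5.80 in SK-N-MC with siRNA 2, with siRNA 3 and in the control array (log2 levels). The lines did not overlap, with a log2 difference of -0.68 for A673 minus SK-N-MC. The 3 cyclin genes thus differed between the lines in both directions, with cyclin D1 higher and cyclins D2 and D3 lower in A673.

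**Figure D1:**
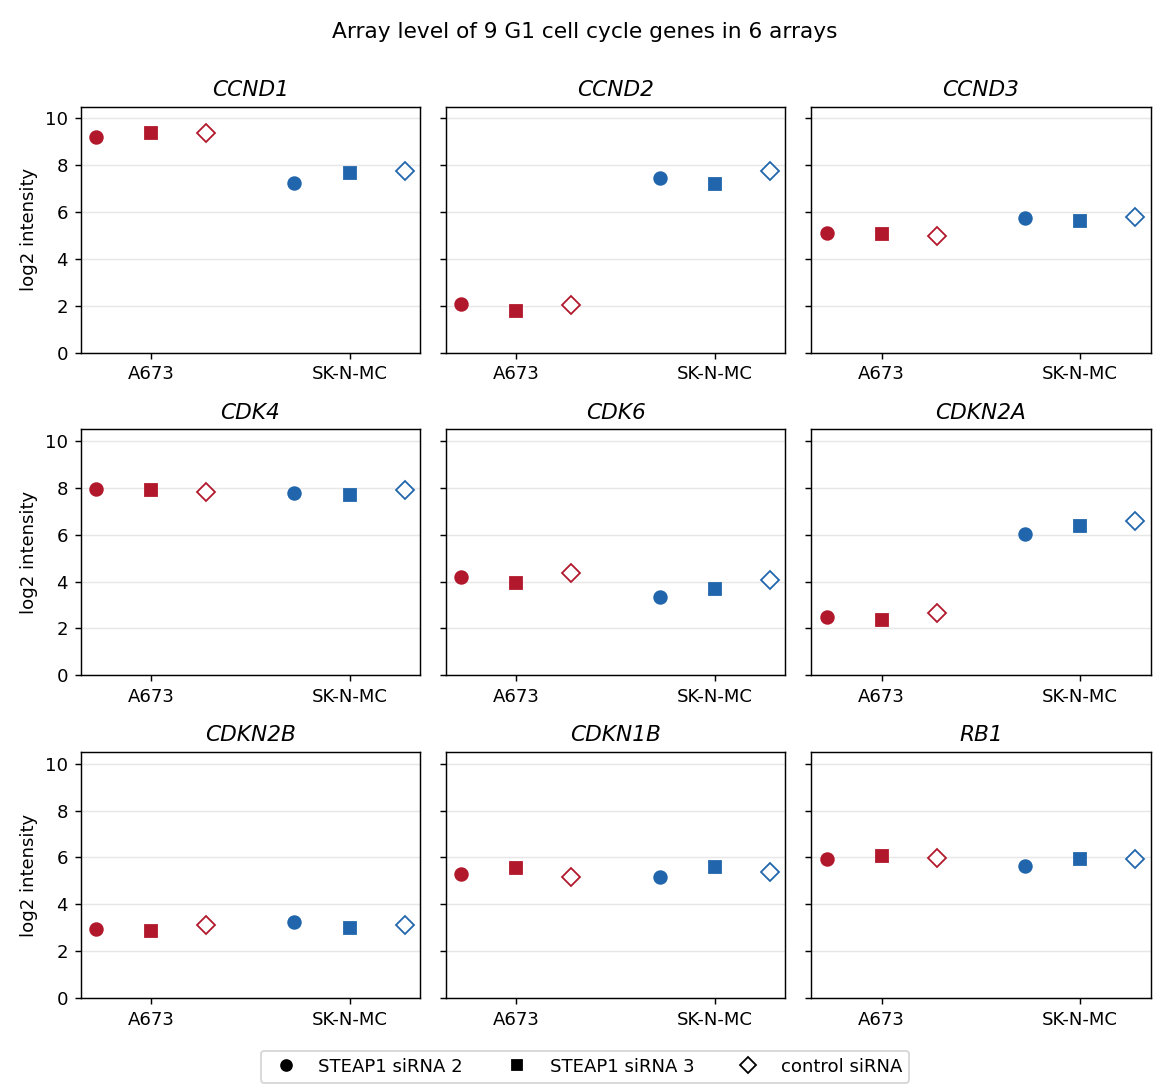
Log2 array intensity of the 9 measured genes, with A673 (red) left of SK-N-MC (blue) in each panel and 1 point per array (circles STEAP1 siRNA 2, squares STEAP1 siRNA 3, open diamonds control siRNA). CCND2 and CDKN2A are low in all A673 arrays and high in all SK-N-MC arrays, CCND1 is higher in A673, and the lines overlap for CDK4, CDK6, CDKN2B, CDKN1B and RB1.

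The kinase genes were at closer levels. CDK4, a catalytic partner of the D cyclins, was at 7.94 with siRNA 2, 7.92 with siRNA 3 and 7.82 in the control array of A673, and at 7.78, 7.72 and 7.92 in SK-N-MC in the same order (log2 levels). The lines overlapped, and the whole range over 6 arrays was 0.22 on the log2 scale. CDK6, the other catalytic partner, was at 4.20, 3.95 and 4.38 in A673 and at 3.36, 3.68 and 4.08 in SK-N-MC with siRNA 2, with siRNA 3 and in the control array. Its lines overlapped too, and its values spread more widely within a line (SD 0.22 in A673 and 0.36 in SK-N-MC).

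CDK4 had the narrowest range of the measured genes, and the sequence ahead of its RefSeq start is shown for that reason. It was searched on both strands, like those of the other listed genes with a promoter entry. The motifs were CACGTG (the E-box that MYC proteins bind), TTTNGCGC (an E2F-type motif), GGAAGGAA (a pair of ETS-type GGAA repeats) and CCAAT. No motif is contained in another, and matches are in capitals. The 250 bases before the start, at chr12:57752311-57752560 on the minus strand of GRCh38.p14, read
CDK4: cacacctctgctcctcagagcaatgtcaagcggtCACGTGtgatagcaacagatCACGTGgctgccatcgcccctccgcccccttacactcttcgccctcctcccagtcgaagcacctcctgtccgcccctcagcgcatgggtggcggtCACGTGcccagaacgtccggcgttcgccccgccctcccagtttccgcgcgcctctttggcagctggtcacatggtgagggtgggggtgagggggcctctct
The window holds CACGTG at 3 places, and 6.34% of all 35116 promoter windows of this length in the RefSeq table hold it at least once. Of the 10 listed genes 8 had an entry there, all but CCND1 and CCND2, with 14 windows in all. Of these windows 3 held CACGTG, that of CDK4 and others of CDKN2C, which was not measured. CCAAT was in 4 (32% of all windows), GGAAGGAA in 0 (3.06%) and TTTNGCGC in 0 (1.51%). Whether each window lies at the main start of its gene was not checked.

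Of the INK4 genes, CDKN2A differed in level between the lines without overlap, while CDKN2B and CDKN2D, the p19 gene (4.01 to 4.56 over all arrays), overlapped. CDKN2D stands in a list of other G1 regulators and is named after its values were seen. CDKN2A encodes the CDK4 and CDK6 inhibitor p16 and, from another first exon, the p53 pathway protein ARF. It was at 2.49 with siRNA 2, 2.38 with siRNA 3 and 2.65 in the control array of A673. It was at 6.05, 6.39 and 6.58 in SK-N-MC in the same order. On the linear scale this is 5.22 to 6.26 intensity units in A673 and 66.2 to 95.7 units in SK-N-MC. The A673 siRNA arrays had CDKN2A below the array median and the control array just above it, so the size of the difference, -3.83 on the log2 scale, is uncertain.

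CDKN2B, which encodes the related inhibitor p15 and lies next to CDKN2A, was dim in both lines. It was at 2.96 with siRNA 2, 2.87 with siRNA 3 and 3.11 in the control array of A673, and at 3.23, 3.01 and 3.11 in SK-N-MC (log2 levels). The lines overlapped, and both control arrays gave 8.62 intensity units.

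The single probe set of CDKN2A is annotated to transcripts of both of its starts, so the array value does not tell p16 from ARF. The windows before both starts and before that of CDKN2B are shown because these neighbours differed in how far A673 lay from SK-N-MC. Intensities of different probe sets are not compared with each other. All 3 are on the minus strand of GRCh38.p14, at chr9:21995325-21995574 for the distal start of CDKN2A (the ARF side), chr9:21974858-21975107 for its proximal start (the p16 side) and chr9:22009306-22009555 for CDKN2B.
CDKN2A distal: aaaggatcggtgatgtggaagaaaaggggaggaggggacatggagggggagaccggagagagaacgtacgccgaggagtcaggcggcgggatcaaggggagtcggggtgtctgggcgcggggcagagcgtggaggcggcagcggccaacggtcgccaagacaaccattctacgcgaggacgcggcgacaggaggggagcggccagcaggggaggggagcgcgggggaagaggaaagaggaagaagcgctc
CDKN2A proximal: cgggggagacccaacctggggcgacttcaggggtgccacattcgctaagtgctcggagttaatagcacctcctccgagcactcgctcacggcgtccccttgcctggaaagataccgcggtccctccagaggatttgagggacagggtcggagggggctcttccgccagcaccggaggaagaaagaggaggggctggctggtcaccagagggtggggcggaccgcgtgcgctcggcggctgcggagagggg
CDKN2B: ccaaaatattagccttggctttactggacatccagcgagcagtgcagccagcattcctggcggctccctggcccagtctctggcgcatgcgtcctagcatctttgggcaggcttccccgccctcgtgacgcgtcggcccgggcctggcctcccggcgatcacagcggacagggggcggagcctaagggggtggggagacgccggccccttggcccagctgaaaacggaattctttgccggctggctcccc
None of the 3 windows holds any of the 4 motifs, so they carry no capitals. These are reference sequences, and neither the copy number nor the methylation of the locus in the lines was measured here.

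Neighbours of CDKN2A on chromosome 9p21 had smaller differences between the lines, though not all had signal to compare. MTAP, the methylthioadenosine phosphorylase gene next to CDKN2A, was at 4.13, 4.47 and 4.50 in A673 and at 4.45, 4.74 and 4.76 in SK-N-MC with siRNA 2, with siRNA 3 and in the control array (log2 levels). Its lines overlapped, but it was lower in A673 for each siRNA and for the control, with a mean log2 difference of -0.28. Of 8 measured neighbours 6 overlapped between the lines and 2 did not, beside 37.9% of all genes without overlap. KLHL9 was higher in A673 by 0.24 and MLLT3 was lower in A673, at -0.76 on the log2 scale. FOCAD (5.24 to 5.44 over all arrays) and DMRTA1 (3.26 to 3.69) had overlapping levels, and MIR31HG, IFNE and ELAVL2 were at 1.04 to 1.43 in all arrays. These 3 were far below the array medians in both lines, so they could not show a lower level in A673. CDKN2B was dim in both lines too, at 2.87 to 3.23, and had little room to show a lower level in A673.

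**Figure D2:**
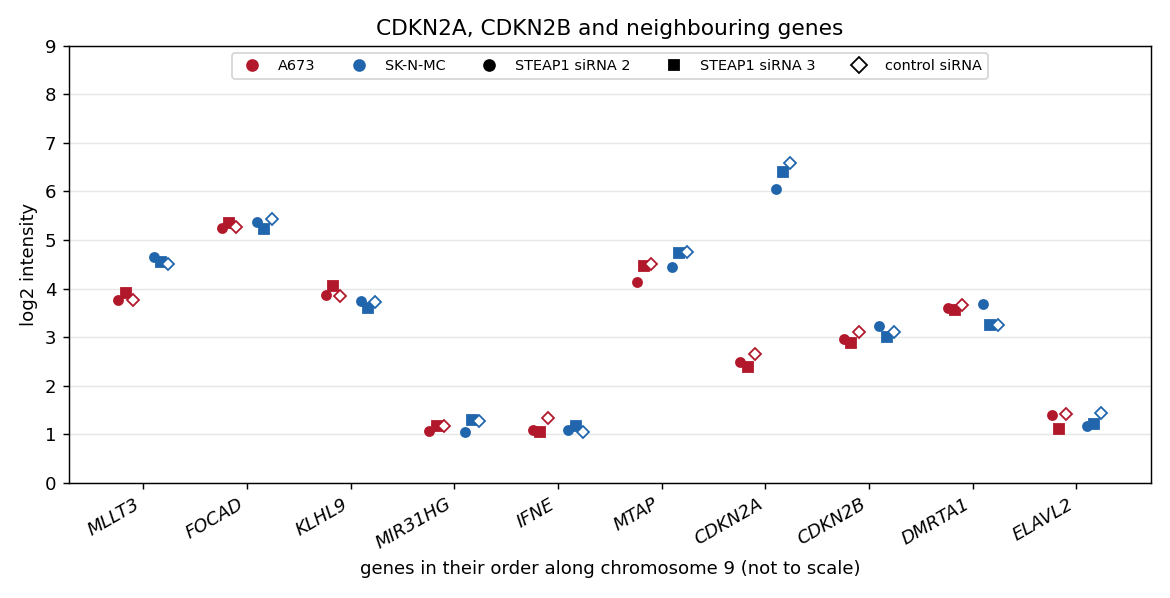
Log2 array intensity of CDKN2A, CDKN2B and 8 neighbouring genes in their order along chromosome 9 (spacing not to scale), A673 in red left of SK-N-MC in blue, 1 point per array. CDKN2A is the gene with a wide gap between the lines (-3.83 on the log2 scale), while MTAP and CDKN2B on either side of it overlap. CDKN2B is dim in both lines.

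CDKN1B, the gene of p27, was at 5.30 with siRNA 2, 5.54 with siRNA 3 and 5.17 in the control array of A673, and at 5.18, 5.57 and 5.40 in SK-N-MC (log2 levels). RB1 was at 5.92, 6.05 and 5.99 in A673 and at 5.63, 5.91 and 5.92 in SK-N-MC in the same order. Both genes overlapped between the lines.

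In all, 4 of the 9 genes had no overlap between the lines, 1 higher and 3 lower in A673, beside 37.9% of all genes without overlap (19.4% higher and 18.5% lower in A673). A mean difference of at least 1 on the log2 scale was seen in 3 of 9 genes (7.88% of all genes) and one of at least 3 in 2 of 9 (0.586% of all genes). As these genes were listed with that difference known, nothing is read from these shares.

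By Pearson correlation over the 6 arrays, among 3089 other genes with a log2 range of at least 1, the levels most like those of CCND2 were ZNF518B, LIN28B and PHF3 (r = 0.998 to 0.999). For CDKN2A these were ANKRD18B, MRPL37 and NDUFS6 (r of at least 0.999), and for CCND1 they were PLPP5, NRDC and ZNF106 (r = 0.999 each, rounded). These correlations mostly reflect the gap between the lines, which all the arrays share, and 85 to 105 genes had r of at least 0.99 to each.

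Of the other genes of the pathway, the cyclin E genes, which act with CDK2 after the D cyclins, also differed in level between the lines. They are named here after their values were seen. CCNE1 was at 3.94 to 3.96 in A673 and at 5.27 to 5.78 in SK-N-MC, and CCNE2 was at 3.63 to 3.92 in A673 and at 5.20 to 5.50 in SK-N-MC (log2 levels). Among the 15 listed regulators of G1 kinases, 3 were higher and 4 lower in A673 without overlap, beside 19.4% and 18.5% of all genes. Among 12 pocket protein, E2F and DP genes these counts were 2 and 5, and among 14 measured E2F target genes 8 and 2, beside the same shares. The median log2 difference was -0.08 for the regulators, -0.16 for pocket protein, E2F and DP genes and 0.20 for E2F targets, beside -0.017 over all genes.

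The next question is whether the genes responded to silencing of STEAP1. In a limma fit of silencing with the line as a covariate over all 18417 genes, 0 of the 9 genes passed a Benjamini-Hochberg adjusted p of 0.05 in either direction, beside 0% of all genes. The silenced gene itself, STEAP1, was not called across lines either (log2 difference -2.18, SE 0.24, limma adjusted p = 0.293), nor within A673 (-1.67, adjusted p = 1.00) or SK-N-MC (-2.70, adjusted p = 0.0681). A count of 0 in these fits therefore does not show that a gene did not respond. At an unadjusted p under 0.05 there was 1 of 9, CDK6, beside 4.63% of all genes. Each line had 1 control array, so the spread of control arrays is unknown.

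CDK6 had the largest difference of the 9. Against the control array of its line it differed by -0.18 with siRNA 2 and -0.44 with siRNA 3 in A673, and by -0.71 and -0.40 in SK-N-MC (log2 differences). It was lower in 4 of 4 siRNA arrays, at -0.43 across lines (SE 0.14, 95% interval -0.76 to -0.10, limma adjusted p = 0.989). CDK6 was at a mean log2 level of 3.94, and it did not pass the threshold over all genes.

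CDKN2A and CCND1 were the other genes that lay below their control array in 4 of 4 siRNA arrays. CDKN2A was dim in A673, near the array medians, and differed there by -0.15 with siRNA 2 and -0.26 with siRNA 3. In SK-N-MC it differed by -0.53 and -0.19, and across lines by -0.28 (SE 0.13, 95% interval -0.59 to 0.02, limma adjusted p = 0.989). CCND1 differed by -0.17 and -0.0042 in A673 and by -0.52 and -0.064 in SK-N-MC, at -0.19 across lines (SE 0.15, 95% interval -0.54 to 0.16). The CCND1 value stood at -0.078 without SK-N-MC siRNA 2, at -0.089 without the SK-N-MC control array and at -0.29 without the A673 control array. In all, 3 of 9 genes were lower in 4 of 4 siRNA arrays, beside 11.2% of all genes, and 0 were higher in 4 of 4, beside 10.6%.

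CCND2 was lower than the control array in 3 of 4 siRNA arrays. It differed by 0.02 and -0.26 in A673, where it was dim, and by -0.31 and -0.57 in SK-N-MC with siRNA 2 and siRNA 3 (log2 differences). Across lines the value was -0.28 (SE 0.15, 95% interval -0.61 to 0.06, limma adjusted p = 0.989). The response was -0.12 in A673 alone and -0.44 in SK-N-MC alone, which are the values without the control array of the other line.

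The remaining genes had differences across lines from -0.088 for CDKN2B to 0.12 for CDKN1B, with RB1 at -0.078, CDK4 at -0.031 and CCND3 at -0.012 (SE 0.11 to 0.15). RB1 stood at -0.0046 in A673 alone and at -0.15 in SK-N-MC alone. For CDK4 the 95% interval ran from -0.30 to 0.24 and for RB1 from -0.37 to 0.22 on the log2 scale. CCND3 had the opposite sign, 0.017, when the arrays were quantile normalized again. By array, 5 of 9 genes lay below the control in A673 with siRNA 2 (51.4% of all genes) and 5 with siRNA 3 (49.2%), and 8 in SK-N-MC with siRNA 2 (50.7%) and 8 with siRNA 3 (50.1%). Over the 9 genes the median difference was -0.088, with 8 on the lower side, beside -0.0050 over all genes and 51.5% of them on the lower side.

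**Figure D3:**
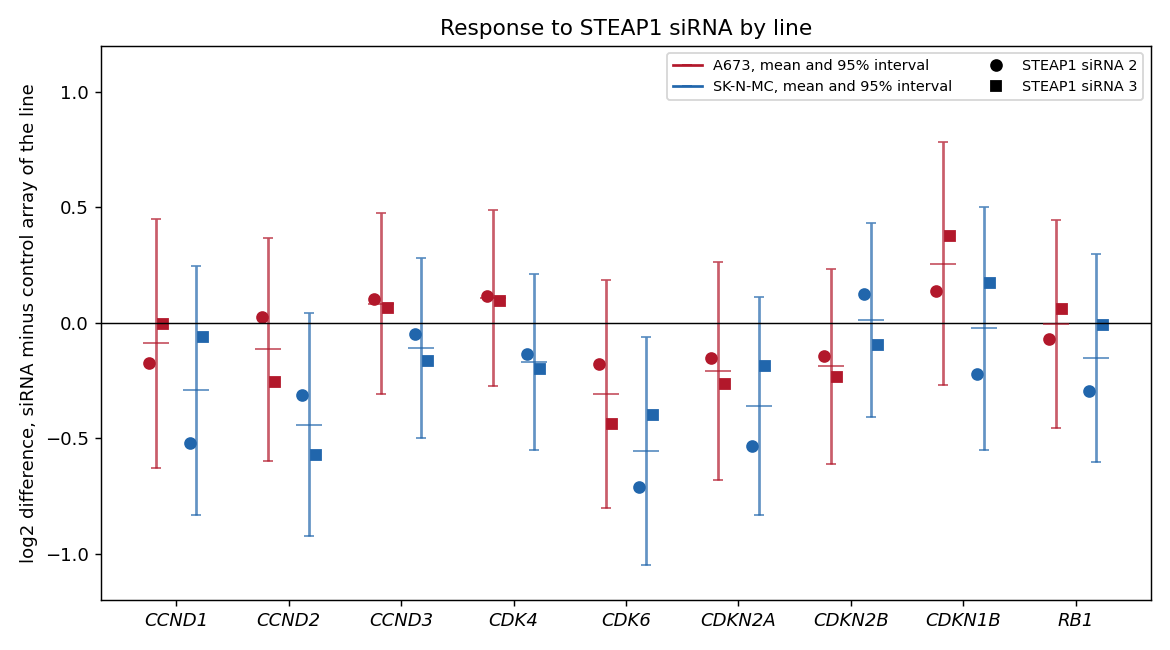
Log2 difference between each siRNA array and the control array of its line, with A673 (red) left of SK-N-MC (blue) for each gene, circles for siRNA 2 and squares for siRNA 3. Horizontal ticks are the means of both siRNAs and bars their 95% intervals from the limma fit of 4 group means; the interval of CDK6 in SK-N-MC, -1.05 to -0.06, is the one that does not include 0, before any adjustment for the number of genes.

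Within A673 the differences ran from -0.31 for CDK6 (SE 0.21) to 0.26 for CDKN1B (SE 0.22) in a limma fit of 4 group means, and 0 of 9 genes passed the threshold (0% of all genes), also at an unadjusted p under 0.05 (3.35% of all genes). Without siRNA 3 the value was -0.18 for CDK6 and 0.14 for CDKN1B, and without siRNA 2 it was -0.44 and 0.38, since a line's value is then that of its other siRNA array. Both siRNA arrays were below the control array for 4 genes, CCND1, CDK6, CDKN2A and CDKN2B, beside 33.1% of all genes. Of these, CDKN2A and CDKN2B were dim in A673. Both were above it for 3, CCND3, CDK4 and CDKN1B, beside 32.3%.

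Within SK-N-MC the differences ran from -0.56 for CDK6 (SE 0.21) and -0.44 for CCND2 (SE 0.20) to 0.012 for CDKN2B (SE 0.18). Here too 0 of 9 genes passed the threshold (0.00543% of all genes), the smallest limma adjusted p being 0.936, and 1 of 9, CDK6, had an unadjusted p under 0.05 (5.12% of all genes). Both siRNA arrays were below the control array for 7 genes, that is, all but CDKN2B and CDKN1B, beside 32.7% of all genes. Both were above it for 0 genes, beside 31.4%. Both arrays are set against 1 control array, so these 7 pairs are not independent of that array. The median over the 9 genes was -0.17, beside -0.0040 over all genes and -0.062 over the 7413 genes with a mean log2 level of at least 4.

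The direct test of the response in A673 minus that in SK-N-MC called 0 of the 9 genes with limma (0% of all genes), and 0 had an unadjusted p under 0.05 (3.86% of all genes). Differences of the responses ran from -0.20 for CDKN2B to 0.33 for CCND2 (SE 0.25 and 0.29). With single siRNA arrays left out, CDKN2B ranged from -0.31 (without SK-N-MC siRNA 3) to -0.090 (without SK-N-MC siRNA 2), and CCND2 from 0.19 (without A673 siRNA 2) to 0.47 (without A673 siRNA 3). CDK4 and CCND3 lay on opposite sides of the control in the lines, at 0.11 in A673 and -0.17 in SK-N-MC for CDK4 (difference 0.27, 95% interval -0.27 to 0.81), and at 0.083 and -0.11 for CCND3. Of all genes 20% had both siRNA arrays on opposite sides in the lines in this way.

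The last question is whether the siRNAs differed from each other. The difference itself needs no control array, but its SE and p-value come from a fit to all 6 arrays. CDKN1B was lower with siRNA 2 than with siRNA 3 in both lines, at -0.24 in A673 and -0.40 in SK-N-MC, and the difference was -0.32 over both (SE 0.15, 95% interval -0.66 to 0.02, limma adjusted p = 0.761). CCND1 differed by -0.17 and -0.46 (mean -0.31, SE 0.15, limma adjusted p = 0.764) and RB1 by -0.13 and -0.29 (mean -0.21, SE 0.14) in A673 and SK-N-MC. CCND2 differed by 0.28 in A673 and 0.26 in SK-N-MC (mean 0.27, SE 0.15, limma adjusted p = 0.818).

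Between the siRNAs 0 of 9 genes passed the threshold (0% of all genes) and 0 had an unadjusted p under 0.05 (6.67% of all genes). With siRNA 2, 3 genes were lower than with siRNA 3 in both lines (26.3% of all genes), and 4 genes, CCND2, CCND3, CDK4 and CDKN2B, were higher in both (24.6%). CDK6 and CDKN2A, 2 of 9, had opposite signs in the lines (48.8%).

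**Figure D4:**
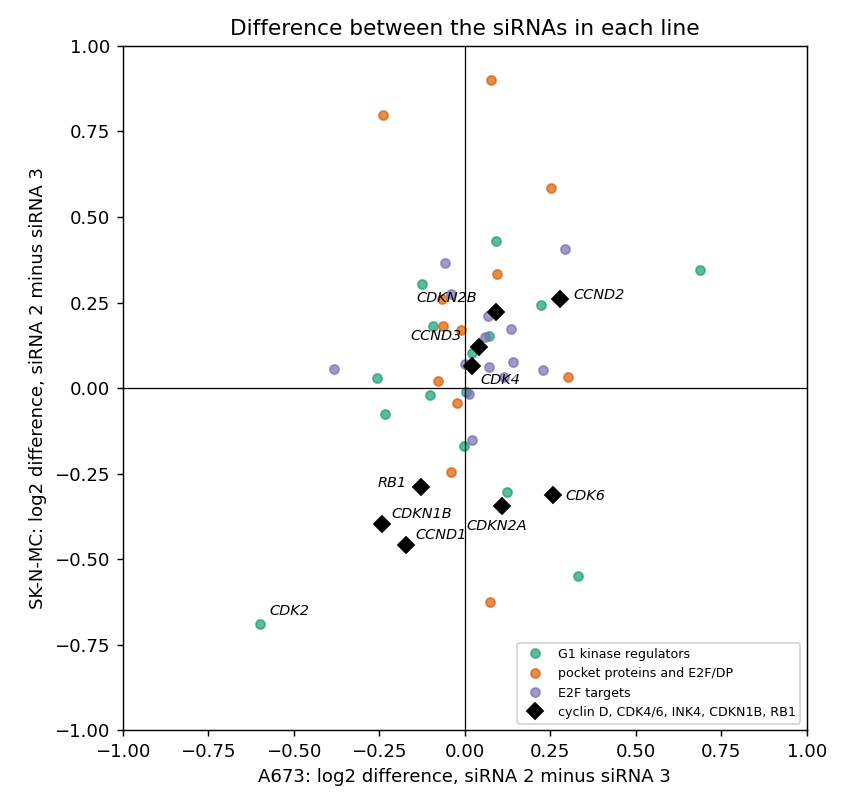
Log2 level with siRNA 2 minus that with siRNA 3, in A673 (horizontal axis) and SK-N-MC (vertical axis), for the 9 genes (black diamonds) and 3 lists of other G1 genes (coloured circles). CCND1, CDKN1B and RB1 lie in the lower left quadrant with CDK2, CCND2, CCND3, CDK4 and CDKN2B in the upper right, and CDK6 and CDKN2A between them in the lower right.

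The kinase gene CDK2, which pairs with cyclins E and A, had the largest difference between the siRNAs in the lists of other G1 genes and is named after its values were seen. It was at 84.6 intensity units with siRNA 2, 128 with siRNA 3 and 103 in the control array of A673, and at 67.4, 108.8 and 88.7 units in SK-N-MC. The control array lay between the siRNA arrays in each line. The difference was -0.64 on the log2 scale (SE 0.13, limma adjusted p = 0.572) and did not pass the threshold over all genes.

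The lists of other G1 genes gave no call in any of these 5 limma comparisons, in either direction. Across both lines the median log2 difference was -0.075 for the 15 regulators of G1 kinases (10 lower), -0.017 for the 12 pocket protein, E2F and DP genes (7 lower) and 0.057 for the 14 E2F targets (3 lower), beside -0.0050 over all genes. The smallest p of each list belonged to CDK7, a kinase that activates other CDKs, at -0.26 (SE 0.12), to the repressive E2F gene E2F4 at 0.28 (SE 0.12) and to the replication licensing gene CDT1 at 0.31 (SE 0.12), each with a limma adjusted p of 0.989. In A673 all 14 E2F targets had a positive mean difference, with a median of 0.079, while in SK-N-MC 8 of 14 did, with a median of 0.030, and the targets of a line share its control array. Over all genes 50.5% had a negative difference in A673 and 50.9% in SK-N-MC, with medians of -0.0028 and -0.0040. Over the 7413 genes with a mean log2 level of at least 4, which include all 14 targets, the medians were 0.025 in A673 and -0.062 in SK-N-MC. The part of intensity in the targets' values was not tested. Of the 14 targets 4 were higher in 4 of 4 siRNA arrays, beside 10.6% of all genes. Between the siRNAs 9 of 14 were higher with siRNA 2 in both lines, beside 24.6% of all genes, and their median difference was 0.11, beside -0.0061 over all genes.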

How the data were processed

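RNA of 6 samples was measured on arrays. The deposited intensities are linear. Per the submitters' processing notes, the authors ran RMA in Affymetrix Expression Console 1.1, and the step from its log2 output to linear values is not stated. Log2 was taken with no further normalization. Of 33297 probe sets, 19460 carry 1 gene symbol, and symbols were updated by gene identifier through RefSeq (GRCh38.p14, 19429 matched). The brightest probe set stood for a gene. Fits used limma 3.58.1 in R 4.3.3 over 18417 genes, two-sided, with Benjamini-Hochberg adjustment over all of them. They were silencing with the line as covariate (3 residual degrees of freedom), 4 group means (2) and a cell line term with a term for each siRNA (2). They were tested on simulated data with large planted differences and less noise than in these arrays. That setting is easier than the differences of the 9 genes and does not show how the fits perform for them. No detection calls were used, and 6 arrays limit the precision. The genes and lists were chosen with earlier results of these data known. Named were the 9 genes, STEAP1, the 3 most correlated genes of CCND1, CCND2 and CDKN2A, the smallest p of each list and all 9p21 neighbours. Exceptions are marked. Alternatives were median centring, quantile normalization, mean of probe sets, a limit on dim genes and an intensity trend. Others were a separate term for each siRNA in the silencing fit and each array left out.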

Additional observations from a re-analysis of the deposited data

How the results depend on the processing

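No alternative called any of the 9 genes: 458 member values tested gave adjusted p-values of 0.346 to 1. The mean of probe sets could not change a difference, as each of the 9 genes had 1 probe set. Leaving out an A673 array could not change a difference within SK-N-MC, and the same holds with the lines exchanged. Signs reversed for small differences. After a second quantile normalization, CCND3 across lines stood at 0.017 and CDKN1B within SK-N-MC at 0.026. After median centring, RB1 within A673 stood at 0.0038, CDKN2B within SK-N-MC at -0.020 and CDKN1B in A673 minus SK-N-MC at 0.012. The cause was not tested. Over all genes, the calls within SK-N-MC numbered 1, 4 after quantile normalization and 5 with the intensity trend.

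With single arrays left out, called genes ranged from 0 to 1 across lines, 0 to 61 within SK-N-MC and 0 to 26 in the difference of responses, with 0 in A673 and between siRNAs. Most calls came without SK-N-MC siRNA 3, where the A673 siRNA arrays alone give the spread and the lone SK-N-MC siRNA array is assumed to vary like them. Signs then reversed within these ranges. Across lines they were -0.11 to 0.083 for CCND3, -0.17 to 0.11 for CDK4, -0.19 to 0.012 for CDKN2B and -0.024 to 0.26 for CDKN1B. The ends of these ranges across lines are the responses of A673 alone and SK-N-MC alone. They arise because leaving out a line's only control array leaves the response of the other line. The call across lines came without the A673 control array, so it is that within SK-N-MC. Within A673 the ranges with a reversed sign were -0.26 to 0.025 for CCND2 and -0.069 to 0.060 for RB1. Within SK-N-MC they were -0.098 to 0.12 for CDKN2B and -0.22 to 0.17 for CDKN1B. In the difference of responses they were -0.026 to 0.43 for CCND1 and -0.022 to 0.32 for CDKN2A. Between siRNAs they were -0.043 to 0.13 for CDK4, -0.30 to 0.25 for CDK6 and -0.33 to 0.091 for CDKN2A, and between lines -0.18 to 0.049 for CDKN1B.

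Without a line's only control array the response of that line and the difference of responses could not be fitted. CDK6 and CDKN2B have no value with the limit of 4 on the mean log2. With a separate term for each siRNA number, and their mean taken as silencing, the call count across lines was 0. CDK6 stood at -0.43 (limma adjusted p = 0.935). The numbers name the siRNA and no shared culture, and the siRNA 2 minus siRNA 3 difference correlated between lines at 0.0663 across genes.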
